A study of Mus musculus with 6 samples.

Results

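The glutathione S-transferase (GST) family was examined in hematopoietic stem cells (HSCs) from mouse bone marrow (BM) through 10 of its genes, out of 21878 genes listed in each library. The genes were the 3 microsomal members Mgst1, Mgst2 and Mgst3 and the 7 soluble or organellar members Gstp1, Gstm1, Gstm5, Gsto1, Gstk1, Gstt2 and Gstz1. Mgst2 was picked because its difference between the 2 groups was among the largest rises, so its values are a description and carry no test. The other 9 were taken by name as relatives of Mgst2, with earlier results of these data known, and they are not all of the family. All 10 were listed in every library and all 10 passed the filter on low values.

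RNA-seq was run on 3 libraries of HSCs from control mice, which received vehicle, and 3 libraries of HSCs from mice treated with recombinant IGF1, insulin-like growth factor 1. The mice were wild-type C57BL/6, the IGF1 group had 1 subcutaneous dose of 200 µg/kg, and cells were taken at day 1 after the dose, all as the study's methods give it. The sort kept cells positive for Sca1 and c-Kit and negative for lineage markers, CD34 and Flk2 (Flt3), so both groups hold sorted BM cells and not cultured ones. The labels do not say whether the libraries of a group came from separate mice, so p-values measure only the spread between these libraries. The extraction text of the labels speaks of irradiated mice while the treatment label names IGF1, and the treatment label was followed.

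Glutathione S-transferases join the tripeptide glutathione to reactive, oil-soluble compounds, which makes them easier to export and less harmful. The soluble enzymes fall into classes named by Greek letters (pi, mu, omega, theta, zeta, kappa). The microsomal enzymes belong to a separate membrane-bound family called MAPEG, whose members also reduce lipid hydroperoxides or make leukotrienes, lipid messengers derived from arachidonic acid. Many GST genes are known targets of NRF2 (encoded by Nfe2l2), a transcription factor activated by oxidative stress that binds a short DNA motif named the antioxidant response element.

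Mgst2 and Mgst3 are shown here by the DNA before their start sites, because they were the 2 members with the largest differences between the groups. The sequences are from RefSeq on GRCm38.p6, run 5′ to 3′ on the strand of the gene from 250 bases before the start to base 12 after it, and carry in capitals the matches to 5 searched motifs. The window of Mgst2 lies at chr3:51660929-51661190 on the plus strand and that of Mgst3 at chr1:167393830-167394091 on the minus strand. The RefSeq start of Mgst2 lies inside the span that GENCODE gives the gene, which begins at base 51660360 with the first exon of another transcript.
Mgst2: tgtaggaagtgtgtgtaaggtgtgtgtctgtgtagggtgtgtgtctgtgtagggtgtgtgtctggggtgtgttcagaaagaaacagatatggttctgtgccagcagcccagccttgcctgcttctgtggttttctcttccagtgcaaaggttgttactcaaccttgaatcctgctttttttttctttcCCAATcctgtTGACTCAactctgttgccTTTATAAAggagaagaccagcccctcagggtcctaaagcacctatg
Mgst3: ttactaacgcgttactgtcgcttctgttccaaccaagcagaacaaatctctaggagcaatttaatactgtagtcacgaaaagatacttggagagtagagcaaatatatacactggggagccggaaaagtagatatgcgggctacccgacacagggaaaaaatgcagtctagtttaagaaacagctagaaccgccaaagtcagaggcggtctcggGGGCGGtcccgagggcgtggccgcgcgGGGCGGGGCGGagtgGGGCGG
The motifs, read on both strands over windows of 300 bases (250 before and 50 after the start), were the core of the antioxidant response element (TGACNNNGC), the AP-1 site (TGANTCA), the GC box (GGGCGG), the CCAAT box (CCAAT) and the TATA box (TATAAA). In the Mgst2 window the capitals mark a CCAAT box that begins 62 bases before the start, an AP-1 site at 52 bases and a TATA box at 32 bases, which overlaps a match on the other strand. That window held no GC box and had a GC content of 46.3%. In the Mgst3 window the capitals mark 4 GC boxes, at 36, 9 and 4 bases before the start and at base 7 after it, 2 of which overlap by 1 base. It held no TATA, CCAAT or AP-1 match and had a GC content of 54.7%. The median GC content over all 32851 windows was 52.7%.

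Across all windows the antioxidant response element core was found in 12.4%, the AP-1 site in 7.8%, the GC box in 35.7%, the CCAAT box in 37.4% and the TATA box in 13.6%. RefSeq windows were matched for 9 of the 10 members, 12 windows in all, and Gstt2 was not matched. The antioxidant response element core was found in a window of Gstm5, 42 bases before the start, and in 1 of Mgst1, 56 bases before the start on the other strand. It was not found in the windows of Mgst2 or Mgst3. Gstp1 held an AP-1 site 74 bases before its start, followed by a GC box at 60 bases. These are matches of letters in the reference genome.

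The 10 genes lie on 6 chromosomes of GRCm38. On chromosome 3 are Mgst2 (chr3:51660360-51682677), Gstm5 (chr3:107895821-107898686) and Gstm1 (chr3:108012255-108017973), the last 2 within the cluster of mu class genes. On chromosome 19 are Gstp1 (chr19:4035407-4037985) and Gsto1 (chr19:47854970-47864790), and on chromosome 6 are Gstk1 (chr6:42245935-42250447) and Mgst1 (chr6:138140316-138156755). Mgst3 (chr1:167371966-167393841), Gstt2 (chr10:75831114-75837424) and Gstz1 (chr12:87147165-87164723) are each alone. Of all distinct 75-base stretches in the transcripts of Gstp1, 29.2% also occur in Gstp2 or Gstp-ps, and of those of Gstm1, 11.7% occur in Gstm3, Gstm2-ps1 or Gm8834, so reads of these 2 genes could have been split and their values are uncertain. The other 8 members share 0 such stretches with another gene.

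Values are FPKM, fragments on a gene scaled to the length of its transcript and to the depth of the library, which allow levels of different genes to be compared. The libraries held between 10956036 and 15668571 fragments on listed genes, recovered from the steps of the values. Before any comparison of groups, control replicate 2 stood apart from the other 2 controls. Over the genes with at least 25 fragments in a pair of libraries, chi-squared per gene was 1.52 between control replicates 1 and 3 and 1.69 to 1.89 among the IGF1 libraries, where counting noise alone gives about 1. It was 233 and 235 between control replicate 2 and the other controls and 24.7 to 28.0 between it and the IGF1 libraries. On the log2 scale, control replicate 2 lay at a median of 80.6% of the way from the other 2 controls to the IGF1 libraries, over 6619 genes whose distance exceeded 0.5. Which of the 3 controls is typical cannot be told from the labels, so the counts of calls for the members and pathway lists are given with and without this library. The sums of FPKM also differed, from 466135 and 466619 in control replicates 3 and 1 to between 635111 and 680285 in the other 4 libraries. A second scale is therefore given beside FPKM, on which every library was scaled to the same sum (equal-sum scaling).

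Of 12 genes of HSC sort and identity, 10 passed the filter. Kit had 105, 31.4 and 104 FPKM in controls and 24.6, 24.4 and 24.2 FPKM with IGF1, and Procr, a surface protein of HSCs, was between 11.5 and 18.7 FPKM. Other genes of the list were low, with Slamf1 at 0.736 to 2.41 FPKM, Fgd5 at 0.277 to 1.68 FPKM and Hoxb5 at 0.279 to 0.691 FPKM. Transcripts of the 2 proteins that the sort selected against were not near 0, with Cd34 at 230 to 640 FPKM and Flt3 at 117 to 188 FPKM. Myeloid granule genes were also present, with Mpo at 1610 to 1700 FPKM and Elane at 92.4 to 709 FPKM. The label of HSC is used below as the name of the sorted population.

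Mgst2, a membrane enzyme that conjugates glutathione and can form leukotriene C4, was lower in control than in IGF1 cells. Control replicates 1, 2 and 3 held 2.59, 11.9 and 3.50 FPKM, and IGF1 replicates 1, 2 and 3 held 29.1, 26.3 and 30.0 FPKM. The groups did not overlap, with control replicate 2 above the other controls and below all IGF1 libraries. For every gene below, values stand in the order of replicates 1, 2 and 3. The Mgst2 values rested on 72, 239 and 98 fragments in the controls and 627, 517 and 672 fragments with IGF1, and 95% Poisson intervals, which cover counting error only, ran from 2.02 to 3.26 FPKM in control replicate 1, from 10.5 to 13.5 FPKM in control replicate 2 and from 24.1 to 28.6 FPKM in IGF1 replicate 2. The spread between control replicate 2 and the other controls was thus larger than counting error. The means were 6.0 ± 5.14 FPKM in controls and 28.5 ± 1.95 FPKM with IGF1 (SD, n = 3 each), a log2 fold change of 2.31 on log2(FPKM + 1), a scale that understates changes of low genes. On the equal-sum scale the difference was 1.98, and without control replicate 2 it was 2.87. Mgst2 had been chosen as 1 of the 5 genes with the largest log2 fold change, where it ranked 4. The choice was made over called genes at or above the median level with every IGF1 library above every control. That the groups of Mgst2 did not overlap was thus set by the choice. The last of the 5 was Hist1h4h at 2.11, and the first outside them was Hist3h2ba at 2.07. In bulk RNA, fewer cells of a type and less RNA per cell cannot be told apart, for Mgst2 or for any gene below.

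Mgst3, a glutathione transferase and lipid peroxidase of the same membrane family, had 24.9, 65.1 and 26.4 FPKM in controls and 90.0, 95.7 and 88.6 FPKM with IGF1. The groups did not overlap, and control replicate 2 again lay between. The means were 38.8 ± 22.8 and 91.4 ± 3.77 FPKM (SD, n = 3 each), giving a log2 fold change of 1.36 ± 0.37 (adjusted p = 0.0503, limma), where ± gives the standard error (SE) of a log2 fold change here and below, so Mgst3 missed the adjusted p of 0.05. The exact 2-sided permutation test gave p = 0.1, the smallest that 3 libraries against 3 allow. On the equal-sum scale the log2 fold change was 0.97, and without control replicate 2 it was 1.79.

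Mgst1, which sits in the endoplasmic reticulum and outer mitochondrial membrane, had 23.1, 42.0 and 21.9 FPKM in controls and 38.3, 39.5 and 36.0 FPKM with IGF1. Its highest value was in control replicate 2, so the groups overlapped. The log2 fold change was 0.44 ± 0.25 (SE, adjusted p = 0.189) and only 0.06 on the equal-sum scale.

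Relative to Mgst1 in the same library, a ratio that no scaling of libraries changes, Mgst2 stood at 0.112, 0.284 and 0.16 in controls and at 0.759, 0.664 and 0.833 with IGF1. Mgst3 stood at 1.08, 1.55 and 1.2 times Mgst1 in controls and at 2.35, 2.42 and 2.46 times with IGF1. In all 3 control libraries both ratios were below those of every IGF1 library. Mgst3 and Mgst1 thus did not keep their proportion between the groups. Mgst2 was picked for its rise on this contrast, so its ratio is a description only.

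**Figure D1:**
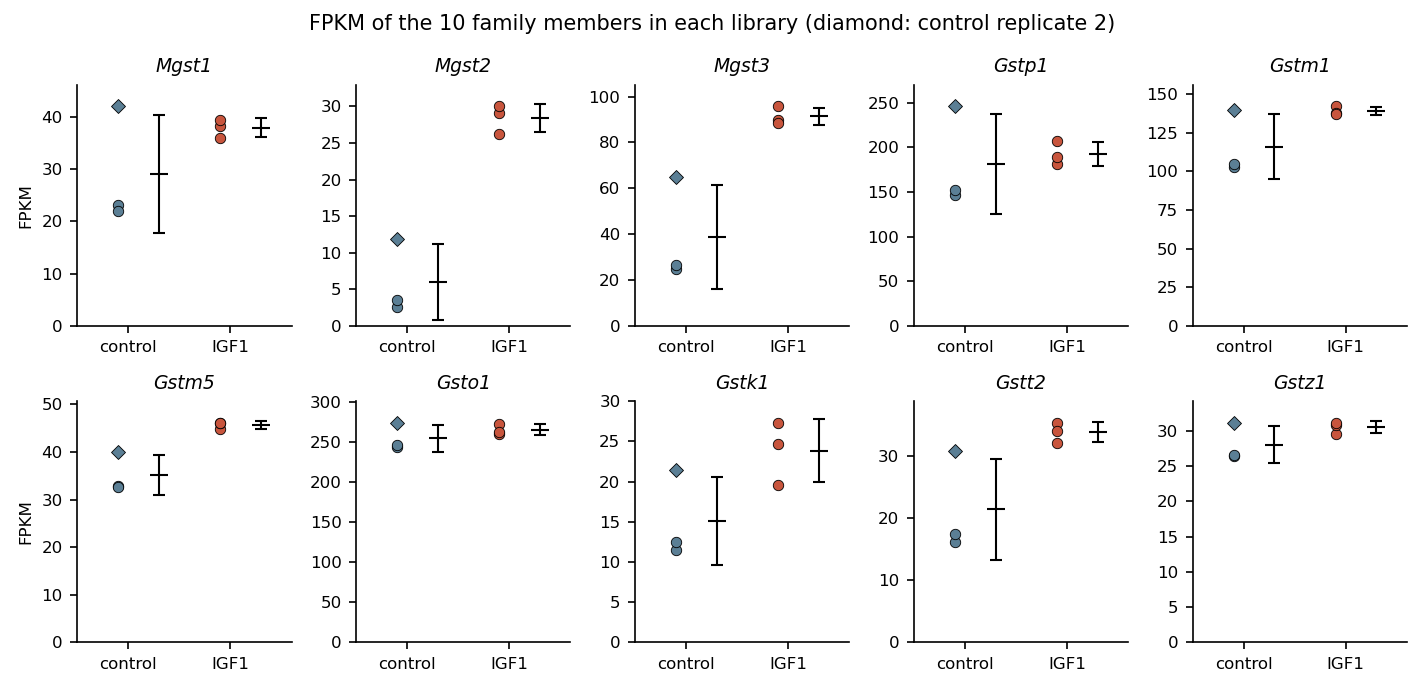
FPKM of each member by group, 1 panel per gene with its own axis from 0. Points are libraries (diamond, control replicate 2) and bars are the mean ± SD of 3 libraries. In Mgst2, Mgst3, Gstm5 and Gstt2 every IGF1 library lies above every control, which for Mgst2 was a condition of its choice. In the other 6 genes control replicate 2 reaches into or above the IGF1 values.

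The 2 most abundant soluble enzymes differed on the deposited scale by less than the spread between the control libraries. On the equal-sum scale every IGF1 library was below every control in both. Gsto1, of the omega class, which reduces dehydroascorbate and protein-bound glutathione adducts, had 244, 274 and 246 FPKM in controls and 273, 260 and 263 FPKM with IGF1. Control replicate 2 held its highest value, and the log2 fold change was 0.06 ± 0.11 (SE, adjusted p = 0.651). Its sign turned to -0.33 on the equal-sum scale.

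Gstp1, the pi class enzyme, which also binds stress kinases, had 147, 246 and 152 FPKM in controls and 181, 189 and 207 FPKM with IGF1. Here too control replicate 2 was the highest of the 6 libraries. The log2 fold change was 0.12 ± 0.22 (SE, adjusted p = 0.658), and it was -0.27 on the equal-sum scale. With the trend on length and GC content removed it was -0.74 (adjusted p = 0.0333). Gstp2, its neighbour and near copy, was at 0.413 FPKM or less in all libraries.

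The mu class members Gstm1 and Gstm5, cytosolic conjugating enzymes, were both slightly higher with IGF1 on the deposited scale. Gstm1 had 103, 140 and 105 FPKM in controls and 142, 138 and 137 FPKM with IGF1, a log2 fold change of 0.27 ± 0.15 (SE, adjusted p = 0.162). Gstm5 had 32.8, 40.1 and 32.7 FPKM in controls and 44.8, 46.1 and 46.1 FPKM with IGF1, a log2 fold change of 0.37 ± 0.11 (SE, adjusted p = 0.0579). The groups of Gstm5 did not overlap, and those of Gstm1 overlapped through control replicate 2. On the equal-sum scale both signs turned, to -0.12 for Gstm1 and -0.01 for Gstm5. Their ratio, Gstm5 to Gstm1, was 0.318, 0.288 and 0.31 in controls and 0.316, 0.334 and 0.336 with IGF1, so the groups overlapped and the pair kept nearly the same proportion.

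Gstk1, the kappa class enzyme of mitochondria and peroxisomes, had 11.5, 21.4 and 12.5 FPKM in controls and 24.7, 27.3 and 19.6 FPKM with IGF1. The groups overlapped, and the log2 fold change was 0.66 ± 0.26 (SE, adjusted p = 0.0854). Gstt2, of the theta class, had 16.1, 30.8 and 17.4 FPKM in controls and 35.3, 34.0 and 32.1 FPKM with IGF1. Its groups did not overlap, by a margin of 30.8 against 32.1 FPKM, and the log2 fold change was 0.69 ± 0.25 (SE, adjusted p = 0.0734). Both genes kept a positive sign on the equal-sum scale, at 0.29 for Gstk1 and 0.32 for Gstt2.

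Gstz1, the zeta class enzyme, is maleylacetoacetate isomerase, a step of tyrosine breakdown. It had 26.4, 31.1 and 26.6 FPKM in controls and 29.5, 30.8 and 31.1 FPKM with IGF1. The groups overlapped, with a log2 fold change of 0.12 ± 0.11 (SE, adjusted p = 0.367) that turned to -0.26 on the equal-sum scale.

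Of the 9 members other than Mgst2, 0 were called in either direction at a fold change over 2 and an adjusted p under 0.05 (limma, Benjamini-Hochberg over 10449 genes), where 1.98% of all genes tested were called higher and 4.63% lower. At an unadjusted p under 0.05, 4 of the 9 were higher, against 19.0% of all genes. With limma-voom on the recovered fragments 1 of the 9, Mgst3, was called, against 3.67% of all genes. Every IGF1 library exceeded every control in 3 of the 9, and in 0 of the 9 was the reverse true, while over all genes these shares were 21.9% and 37.4%. On the equal-sum scale these counts were 1 (Mgst3) and 4 (Gsto1, Gstp1, Gstm1 and Gstz1), beside 12.7% and 51.0% of all genes. The 9 had a median log2 fold change of 0.37, beside -0.18 over all genes tested. After equal-sum scaling it was -0.01 beside -0.52, after scaling to the 75th percentile 0.64 beside 0.06, and after removal of the trend on transcript length and GC content 0.33 beside -0.04. The sign of 5 of the 9 thus turned with equal-sum scaling, while the median of the 9 lay above that of all genes under each of these 4.

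The calls differed with the libraries used. On the deposited scale without control replicate 2, 9 of the 9 members had an adjusted p under 0.05 and a positive sign, against 34.9% of all genes, and 1 of the 9, Mgst3, also passed the fold threshold. The log2 fold changes were then 1.79 for Mgst3, 0.97 for Gstt2, 0.92 for Gstk1, 0.73 for Mgst1, 0.47 for Gstm5, 0.41 for Gstm1, 0.36 for Gstp1, 0.19 for Gstz1 and 0.12 for Gsto1. On the equal-sum scale without that library, 4 of the 9 had a positive sign at an adjusted p under 0.05 (Mgst3 1.27, Gstt2 0.46, Gstk1 0.42 and Mgst1 0.21) and 4 a negative one (Gsto1 -0.42, Gstz1 -0.33, Gstp1 -0.18 and Gstm1 -0.13), against 20.9% and 70.0% of all genes. Gstm5, at -0.06, did not pass. On the deposited scale without control replicate 2, 12.3% of all genes were called higher and 20.6% lower. Without any other single library, 0 of the 9 members were called, as were 0 of all genes, with 1 or 2 of the 9 and 2982 to 3205 of all genes at an unadjusted p under 0.05. Control replicate 2 did not lie at the same place in every member. Its place on the way, on the log2 scale, from the other controls to the IGF1 libraries was 58.7% for Mgst2, 61.0% for Gstm5, 73.1% for Mgst3, 85.1% for Gstk1, 86.6% for Gstt2, 101% for Gstm1, 116% for Gstz1, 119% for Mgst1, 137% for Gsto1 and 199% for Gstp1.

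**Figure D2:**
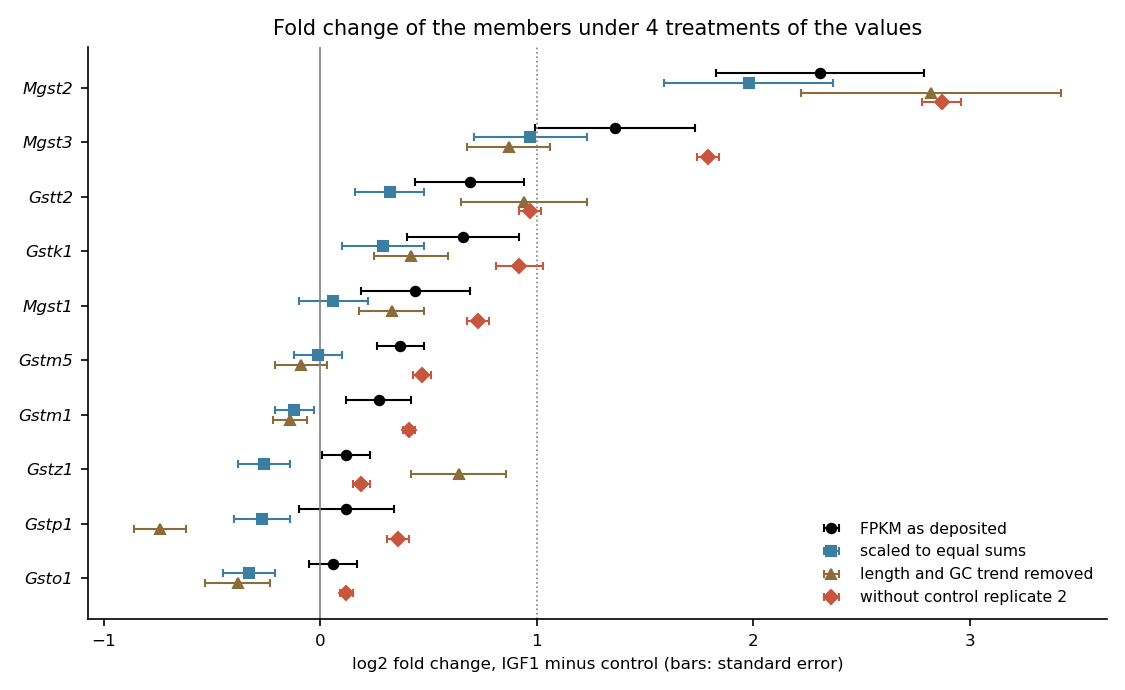
Log2 fold change (IGF1 minus control, on log2(FPKM + 1)) of the 10 members with the standard error as bars, for FPKM as deposited, equal-sum scaling, removal of the trend on transcript length and GC content, and the deposited values without control replicate 2. The dotted line marks a 2-fold change. Mgst2 and Mgst3 stay positive in all 4, between 0.87 and 2.87, while Gsto1, Gstp1, Gstm1 and Gstm5 lie below 0 in 2 of the 4 and Gstz1 in 1.

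Gsto1, Gstp1 and Gstm1 were, in this order, the 3 members of the highest level in both groups. In controls the means ran from Gsto1 at 254 ± 16.7 FPKM through Gstp1 at 182 ± 55.8, Gstm1 at 116 ± 20.4, Mgst3 at 38.8 ± 22.8, Gstm5 at 35.2 ± 4.27, Mgst1 at 29.0 ± 11.3, Gstz1 at 28.0 ± 2.66, Gstt2 at 21.4 ± 8.15 and Gstk1 at 15.1 ± 5.47 to Mgst2 at 6.0 ± 5.14 FPKM (SD, n = 3). The ranges of Gstm1 and Gstp1, and of Gstm1 and Mgst3, did not overlap, and all other neighbours in this order overlapped. With IGF1 the order was Gsto1 at 266 ± 6.45 FPKM, Gstp1 at 192 ± 13.2, Gstm1 at 139 ± 2.46, Mgst3 at 91.4 ± 3.77, Gstm5 at 45.7 ± 0.766, Mgst1 at 38.0 ± 1.81, Gstt2 at 33.8 ± 1.64, Gstz1 at 30.5 ± 0.821, Mgst2 at 28.5 ± 1.95 and Gstk1 at 23.9 ± 3.94 FPKM. Here only Gstz1 with Mgst2, and Mgst2 with Gstk1, overlapped as neighbours.

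Together the 10 genes summed to 631.5, 901.7 and 644.2 FPKM in controls and to 887.8, 887.1 and 891.2 FPKM with IGF1. As a share of all FPKM this was 0.135%, 0.142% and 0.138% in controls and 0.13%, 0.131% and 0.131% with IGF1. Within the family the make-up differed. The 3 microsomal genes held 8.0%, 13.2% and 8.04% of the family's FPKM in controls and 17.7%, 18.2% and 17.3% with IGF1. The means were 9.75% ± 2.99 and 17.8% ± 0.431 (SD, n = 3), with no overlap of the groups. These shares include Mgst2, which was chosen on this contrast, and are given without a test.

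Mgst3 made up the larger part of that difference, at 3.94%, 7.22% and 4.09% of the family in controls and 10.1%, 10.8% and 9.94% with IGF1. Mgst2 held 0.409%, 1.32% and 0.543% in controls and 3.28%, 2.96% and 3.37% with IGF1. Gsto1 held 38.6%, 30.3% and 38.2% in controls and 30.7%, 29.4% and 29.6% with IGF1, so that control replicate 2 was within the range of the IGF1 libraries. Gstp1 held 23.3%, 27.3% and 23.6% in controls and 20.4%, 21.3% and 23.2% with IGF1, with control replicate 2 farthest from the IGF1 libraries.

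**Figure D3:**
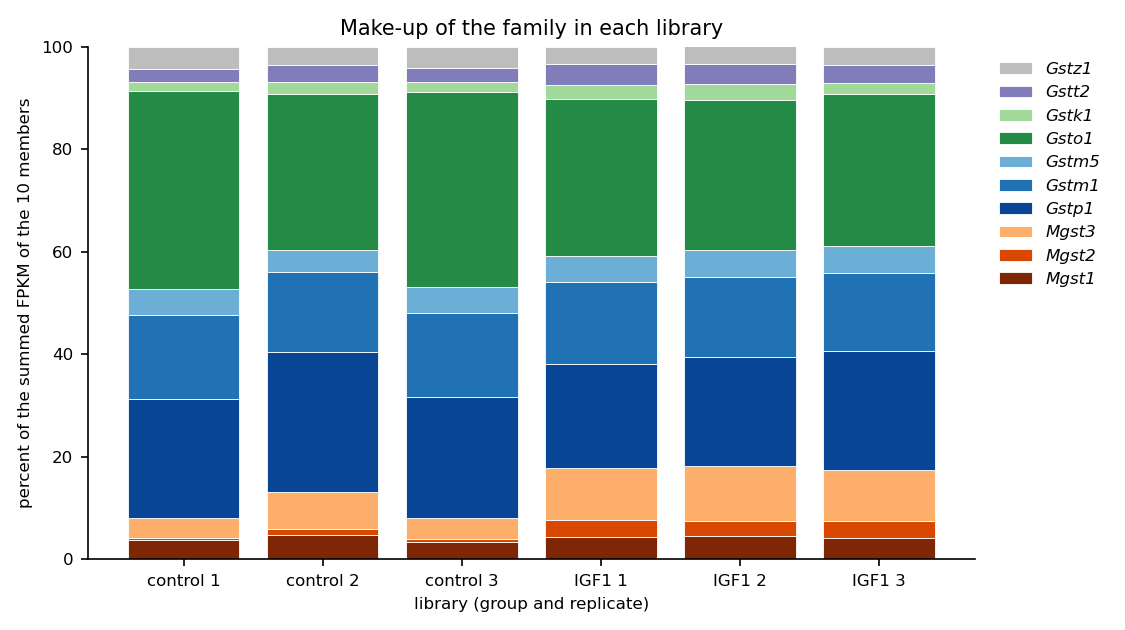
Share of the summed FPKM of the 10 members held by each, as stacked bars in percent for each of the 6 libraries. The 3 microsomal genes at the bottom of each bar fill 8.0% to 13.2% in controls and 17.3% to 18.2% with IGF1, and control replicate 2 lies between.

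The rest of the superfamily was read from a list of 28 further genes, of which 23 were listed and 14 passed the filter. With limma 0 of the 14 were called, at a median log2 fold change of 0.26 beside -0.18 over all genes. At an unadjusted p under 0.05, 3 were higher and 3 lower, beside 19.0% and 34.4% of all genes. With limma-voom 1, Ltc4s, was called higher and 0 lower, where 6.52% of all genes were called lower. In 6 of them every IGF1 library was above every control, and in 3 every IGF1 library was below, beside 21.9% and 37.4% of all genes. Without control replicate 2, 3 were called higher (Alox5ap, Ltc4s and Eef1g) and 1 lower (Clic4), beside 12.3% and 20.6% of all genes. Of the alpha class, Gsta1 and Gsta2 were listed at 0 in all libraries, while Gsta4, which conjugates 4-hydroxynonenal, was at 5.07 to 8.66 FPKM.

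Of the other membrane-bound MAPEG genes, Ltc4s, leukotriene C4 synthase, had 8.04, 14.6 and 10.4 FPKM in controls and 20.0, 22.1 and 24.0 FPKM with IGF1. The 2 groups were apart, and its log2 fold change was 0.97 ± 0.22 (SE, adjusted p = 0.0412), which passed the p threshold and missed the fold threshold. The value was 0.61 on the equal-sum scale and -0.10 once the trend on length and GC content was removed. Alox5ap, which presents arachidonic acid to 5-lipoxygenase, had 155, 331 and 147 FPKM in controls and 374, 387 and 400 FPKM with IGF1, a log2 fold change of 0.98 ± 0.33 (SE, adjusted p = 0.065) and of 0.58 on the equal-sum scale. All 5 MAPEG genes that were tested had positive values on both scales, from 0.44 for Mgst1 to 2.31 for Mgst2 on the deposited scale. Of these, Mgst2 was picked for its rise, and 4221 of all 10449 genes tested had positive values on that scale. Ptges, a further MAPEG gene, did not pass the filter. It had 0.376, 0.523 and 0.391 FPKM in controls and 0.0664, 0.145 and 0.0851 FPKM with IGF1.

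The theta class was split. While Gstt2 had a positive value, Gstt1 had 3.55, 4.18 and 3.53 FPKM in controls and 2.59, 2.74 and 1.83 FPKM with IGF1, a log2 fold change of -0.50 ± 0.15 (SE, adjusted p = 0.0557). Gstt3 had 11.2, 12.2 and 12.6 FPKM in controls and 8.87, 9.05 and 9.73 FPKM with IGF1, a log2 fold change of -0.35 ± 0.11 (SE, adjusted p = 0.0593). In both, every IGF1 library was below every control, and neither passed the test. With the trend on length and GC content removed, Gstt1 was called lower (-1.07, adjusted p = 0.0359) and Gstt3 was not (-0.30). Clic4, a chloride channel protein with a GST fold, had 58.9, 14.9 and 61.0 FPKM in controls and 14.0, 13.3 and 14.4 FPKM with IGF1, so that control replicate 2 was close to the IGF1 libraries (log2 fold change -1.39 ± 0.54, adjusted p = 0.0838).

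**Figure D4:**
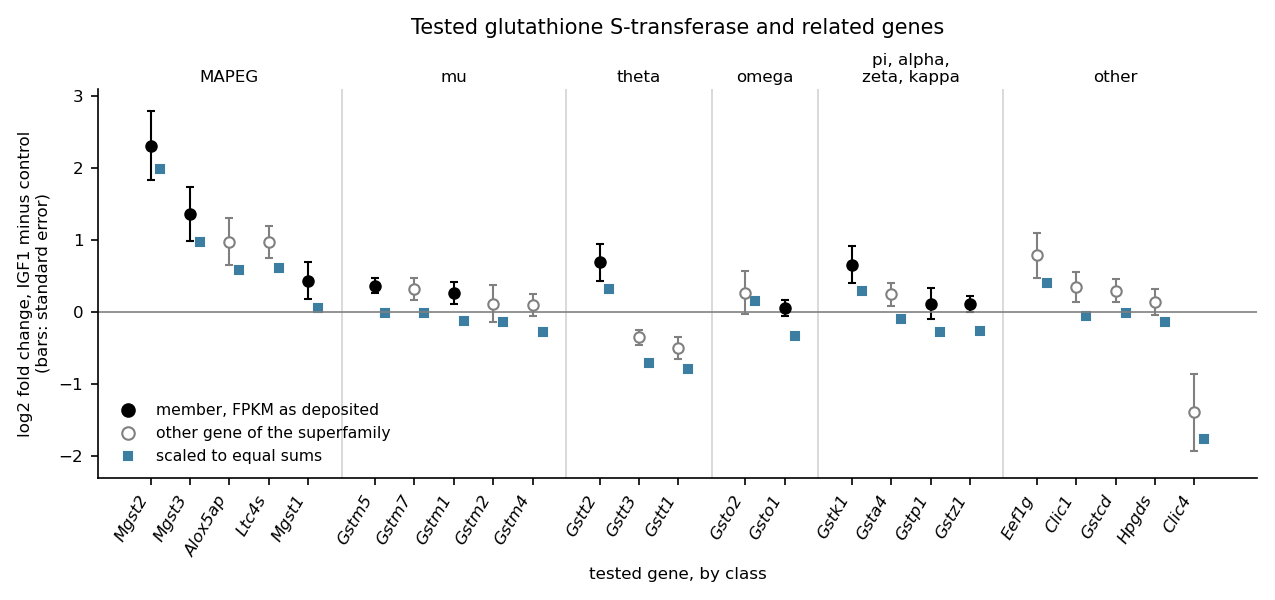
Log2 fold change (IGF1 minus control) of the tested genes of the GST superfamily, by class, with standard errors. Filled circles are the 10 members and open circles the 14 further genes, on FPKM as deposited, and squares are the equal-sum values. The 5 tested MAPEG genes, among them Mgst2, which was picked for its rise, lie above 0 on both scales. The mu class genes lie between -0.27 and 0.37, and the theta class holds Gstt2 above and Gstt1 and Gstt3 below 0.

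Genes that make, recycle and spend glutathione, the substrate of the family, had values of both signs. Of 24 listed genes 18 were tested and 0 were called by limma, with 9 above and 9 below 0 and a median log2 fold change of -0.01. At an unadjusted p under 0.05, 4 were higher and 7 lower, beside 19.0% and 34.4% of all genes. With limma-voom 1 was called lower, Chac2, where 6.52% of all genes were called lower. Gclc, the catalytic subunit of the rate-limiting enzyme of glutathione synthesis, had 37.4, 9.69 and 37.8 FPKM in controls and 6.88, 7.07 and 6.88 FPKM with IGF1 (log2 fold change -1.66 ± 0.51, adjusted p = 0.0582). Every IGF1 library was below every control, with control replicate 2 near the IGF1 libraries. Its partner Gclm had 77.4, 40.2 and 71.9 FPKM in controls and 40.0, 35.4 and 40.4 FPKM with IGF1 (log2 fold change -0.64), and the groups overlapped narrowly. Gss, which completes the synthesis, was at 20.2 to 22.8 FPKM in all 6 libraries (log2 fold change -0.05).

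Gsr, which regenerates reduced glutathione, had 56.2, 16.1 and 59.2 FPKM in controls and 14.1, 14.5 and 14.2 FPKM with IGF1 (log2 fold change -1.35, adjusted p = 0.0761). The glutathione peroxidases Gpx1 and Gpx4 had values of the opposite sign. Gpx1 had 1490, 3510 and 1450 FPKM in controls and 4720, 4570 and 4610 FPKM with IGF1 (log2 fold change 1.24, adjusted p = 0.0669), and Gpx4, which reduces lipid peroxides within membranes, had 249, 459 and 252 FPKM in controls and 527, 510 and 520 FPKM with IGF1 (log2 fold change 0.76, adjusted p = 0.0704). None of these passed the test with all 6 libraries. With the trend on length and GC content removed, Gpx4 was -0.03 and Gpx1 0.59, while Gclc was -1.16 and Gsr -0.98. With control replicate 2 left out, 2 genes of the list were called higher (Gpx1 and Gpx4) and 2 lower (Gclc and Gsr), beside 12.3% and 20.6% of all genes.

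NRF2, encoded by Nfe2l2, had 51.0, 19.4 and 50.2 FPKM in controls and 13.6, 14.3 and 14.6 FPKM with IGF1, with control replicate 2 nearest to the IGF1 libraries and no overlap of the groups (log2 fold change -1.32 ± 0.37, adjusted p = 0.0525). Keap1, which targets NRF2 for destruction, had 23.4, 15.0 and 22.3 FPKM in controls and 15.1, 14.2 and 15.8 FPKM with IGF1 (log2 fold change -0.38). Of the list of NRF2, its partners and targets, 23 of 24 genes were tested and 0 were called by limma, with 8 above and 15 below 0 and a median log2 fold change of -0.46. At an unadjusted p under 0.05, 3 were higher and 11 lower, beside 19.0% and 34.4% of all genes. With limma-voom 1 was called higher and 0 lower, beside 3.67% and 6.52% of all genes. The gene called higher was Maff, a small partner protein of NRF2. Gclc and Gclm stand in both lists. In 4 of the 23 every IGF1 library was above every control, and in 10 every IGF1 library was below, beside 21.9% and 37.4% of all genes. Without control replicate 2, 3 were called higher and 5 lower, Nfe2l2 among the latter, beside 12.3% and 20.6% of all genes.

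In leukotriene and prostaglandin synthesis, 12 of 19 genes were tested. With limma 0 were called higher and 1 lower, beside 1.98% and 4.63% of all genes, at a median of -0.48 beside -0.18. The calls with limma-voom were 1 higher (Ltc4s) and 2 lower (Ptgs1 and Cysltr2), beside 3.67% and 6.52% of all genes. Without control replicate 2, 2 were called higher and 4 lower, beside 12.3% and 20.6% of all genes. The gene called by limma with all libraries was Ptgs1, cyclooxygenase 1. It had 5.94, 3.43 and 5.90 FPKM in controls and 2.04, 1.93 and 1.79 FPKM with IGF1 (log2 fold change -1.03 ± 0.20, adjusted p = 0.0367). Its call ended with equal-sum scaling through the p threshold (-1.34, adjusted p = 0.051). Through the fold threshold it ended with the 75th percentile (-0.82), quantile normalization (-0.89) and the trend on length and GC content removed (-0.66). Alox5, the 5-lipoxygenase that supplies the leukotriene pathway, did not pass the filter, at 0.228 to 1.12 FPKM. Lta4h, which makes leukotriene B4, had 194, 135 and 192 FPKM in controls and 122, 124 and 123 FPKM with IGF1 (log2 fold change -0.48, adjusted p = 0.0716). The value of Lta4h turned to 0.14 with the trend on length and GC content removed.

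For export and further processing of glutathione conjugates, 8 of 16 genes were tested. With limma 0 were called higher and 1 lower, beside 1.98% and 4.63% of all genes, at a median of -0.36 beside -0.18. The calls with limma-voom were 0 higher and 1 lower (Abcg2), beside 3.67% and 6.52% of all genes. Without control replicate 2, 0 were called higher and 2 lower, beside 12.3% and 20.6% of all genes. The gene called with all libraries was Abcg2, an efflux pump known for the side population of HSCs, with 28.2, 9.58 and 28.9 FPKM in controls and 4.68, 4.76 and 4.66 FPKM with IGF1 (log2 fold change -1.88 ± 0.42, adjusted p = 0.0412). The Abcg2 call ended with equal-sum scaling through the p threshold (log2 fold change -2.24, adjusted p = 0.0513). Abcc1, which exports leukotriene C4 and other conjugates, had 9.26, 9.27 and 9.38 FPKM in controls and 6.45, 6.54 and 6.51 FPKM with IGF1 (log2 fold change -0.46 ± 0.10, adjusted p = 0.0412). In Abcc1 control replicate 2 was level with the other controls. In the tyrosine pathway of Gstz1, 7 of 11 genes were tested and 0 called by limma or limma-voom, at a median of -0.24 beside -0.18. At an unadjusted p under 0.05, 1 was higher and 3 lower, beside 19.0% and 34.4% of all genes. Without control replicate 2, 1 was called higher and 2 lower, beside 12.3% and 20.6% of all genes. Fah, the next enzyme after Gstz1, had 2.48, 1.15 and 2.15 FPKM in controls and 1.63, 1.62 and 1.08 FPKM with IGF1.

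The genes whose pattern over the 6 libraries was most like that of Mgst2 were Hist3h2ba, Hist1h4h, Hist1h3e, Tmsb10 and Fau. The root mean square distance of centred log2(FPKM + 1) values from Mgst2 was 0.135 for Hist3h2ba, 0.161 for Hist1h4h, 0.167 for Hist1h3e, 0.185 for Tmsb10 and 0.208 for Fau. Hist3h2ba, a histone H2B gene, had 4.05, 17.3 and 5.77 FPKM in controls and 36.2, 34.0 and 34.4 FPKM with IGF1. Mgst3, the nearest member, was at a distance of 0.506, and the other 8 members were at 0.862 to 1.24. The likeness reflects 6 libraries, of which control replicate 2 takes an intermediate value in each of these genes.

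Markers of other blood cells differed between the same libraries, and their part in the values of the family was not tested. Over all genes tested, limma called 1.98% higher and 4.63% lower, at a median log2 fold change of -0.18. Over all genes listed, FPKM summed to 466619, 635111 and 466135 in controls and to between 677826 and 680285 with IGF1. The sums of markers below are on the deposited scale and were not put on the equal-sum scale. Of 8 B cell markers 6 were tested and 0 called, with a median log2 fold change of 1.02, and their summed level was 111, 423 and 111 FPKM in controls and 390 to 406 FPKM with IGF1, while the defining gene Ms4a1 was at 0.339 FPKM or less. Of 15 neutrophil and monocyte markers 12 were tested, 0 called higher and 4 lower (Camp, S100a9, S100a8 and Ngp). Their sum was 3640, 5810 and 3690 FPKM in controls and 5830 to 5870 FPKM with IGF1. Most of this sum came from Mpo, Prtn3 and Ctsg, which were not called. Ltf, which did not pass the filter, had 13.2, 0.442 and 13.6 FPKM in controls and 0.235 FPKM or less with IGF1. Ly6g was at 0.2 FPKM or less. Of 10 genes of the HSC list that were tested out of 12, 0 were called, at a median of -0.75. Of 10 erythroid markers 7 were tested and 0 called, with sums of 42.3, 114 and 45.7 FPKM in controls and 57.4 to 63.2 FPKM with IGF1. Of 7 megakaryocyte and platelet markers 5 were tested and 1 called higher (Gp1bb), with sums of 54.0, 76.5 and 53.6 FPKM in controls and 95.1 to 105 FPKM with IGF1. Of 7 T and NK cell markers 3 were tested and 1 called higher (Klrd1), with sums of 396, 810 and 386 FPKM in controls and 808 to 823 FPKM with IGF1, nearly all from Nkg7. Mast cell and basophil markers (5 of 6 tested) and stromal and endothelial markers (2 of 7 tested) had 0 called. With limma-voom the lists of 0 calls held 1 in the HSC list (Fgd5, lower) and 1 in the mast cell and basophil list (Ms4a2, lower). The B cell, erythroid and stromal lists again held 0, where 3.67% of all genes were called higher and 6.52% lower. At an unadjusted p under 0.05, 3 B cell markers, 1 mast cell and basophil marker and 1 stromal marker were higher. At that threshold 5 HSC genes and 2 mast cell and basophil markers were lower, and 0 erythroid markers passed. Over all genes these shares were 19.0% higher and 34.4% lower. Without control replicate 2, B cell markers had 4 called higher and 0 lower, and neutrophil and monocyte markers 3 and 5. HSC genes had 0 and 5, megakaryocyte and platelet markers 3 and 0, and T and NK cell markers 2 and 0. Mast cell and basophil markers had 1 and 0, and erythroid and stromal markers 0. Over all genes 12.3% were then called higher and 20.6% lower.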

How the data were processed

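HSCs of 3 control and 3 IGF1 libraries were profiled by stranded mRNA sequencing. Per the study's methods, fastp served for trimming, RSEM for quantification and DESeq2 for calls, while the submitters' processing notes name HISAT2, StringTie and GRCm38. Each deposited file holds 1 value for every gene symbol. No source names the unit, and the deposited values were taken as FPKM because within a gene they rise in whole steps that shrink with transcript length. These steps gave whole fragments (tolerance 0.01) for 15635 of 15640 genes above 0, against 1 of 2000 jittered genes. By replicate, the control libraries held 15576071, 11166367 and 15668571 fragments and the IGF1 libraries 11991140, 10956036 and 12464722. The ratios between libraries are firm, and the total scale rests on transcript lengths.

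Genes reaching 1 FPKM in 3 or more libraries (10449 of 21878) entered limma 3.58.1 (R 4.3.3, eBayes with a trend) as log2(FPKM + 1), adjusted by Benjamini-Hochberg. A call needed a fold change over 2 and an adjusted p under 0.05. Alternatives changed the scaling, filter, pseudocount, variance model, library weights, block, thresholds and libraries, and removed the trend on length and GC content (GENCODE M21 transcripts). limma-voom on recovered fragments, and equal-sum scaling without control replicate 2, were added after the data were seen. Named genes were the members, the tested genes of the superfamily list, 14 fixed pathway genes, at most 3 called genes per list and the 5 genes nearest to Mgst2. Genes named as called by limma-voom or without control replicate 2, Ptges, and the marker genes named in the text were chosen after their values were seen. The members and lists were chosen with earlier results of these data known. Promoters were read from RefSeq windows of GRCm38.p6.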

Additional observations from a re-analysis of the deposited data

How the results depend on the processing

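Of the log2 fold changes of the 9 members other than Mgst2 under the alternatives, 149 kept their direction and side of the threshold, 5, all of Mgst3, were newly called, and 17 reversed. Reversals came with equal-sum scaling (Gstm1 -0.12, Gstm5 -0.01, Gsto1 -0.33, Gstp1 -0.27, Gstz1 -0.26), with the trend on length and GC content removed (Gstm1 -0.14, Gstm5 -0.09, Gsto1 -0.38, Gstp1 -0.74), with quantile normalization (Gsto1 -0.25, Gstp1 -0.01), without control replicate 1 (Gstp1 -0.01), and with equal-sum scaling without control replicate 2 (Gstm1 -0.13, Gstm5 -0.06, Gsto1 -0.42, Gstp1 -0.18, Gstz1 -0.33). Mgst2 ran from 1.70 to 2.90 and Mgst3 from 0.87 to 1.80. Members other than Mgst2 called higher numbered 0 with the deposited values and 1, Mgst3, with 75th percentile scaling, library weights, limma-voom or equal-sum scaling without control replicate 2, and 0 to 1 when libraries were left out. Without control replicate 2 the value of Gstp1 was 0.36.

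All genes called higher and lower, 207 and 484, became 32 and 196 with equal-sum scaling, 392 and 210 with the 75th percentile, 312 and 271 with quantile normalization, 109 and 265 with no filter, 66 and 157 with pseudocount 5, 1276 and 2159 with library weights, 654 and 1476 with no fold threshold, 168 and 147 with the trend on length and GC content removed, 383 and 681 with limma-voom, and 647 and 3979 with equal-sum scaling without control replicate 2. Leaving out 1 library gave 0 to 1281 higher and 0 to 2157 lower, the highest without control replicate 2. With the replicate number as a replicate block 0 genes were called in either direction (4791 at an unadjusted p under 0.05). Whether the numbers pair the libraries cannot be told. Correlations of the deviations of same-numbered libraries from their group means were -0.0572, -0.0503 and 0.00567. In the controls these deviations mainly follow control replicate 2, so a small shared effect could be missed. The cause of these shifts was not tested. Depth limits Mgst2 most, at 72 fragments in control replicate 1.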
